A study of Mus musculus with 16 samples.

Results

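The receptors and feedback genes described here are 10 genes of the route by which growth factors act on neural stem cells: the receptors Egfr, Fgfr1, Fgfr2 and Fgfr3, the feedback inhibitors Spry1, Spry2, Spry4, Dusp4 and Dusp6, and the transcription factor gene Etv5. They were chosen by name. A gene was read from probe sets that the array's annotation gives to its symbol alone, the brightest probe set was used, and the others served as a check. Of the 10 genes, 9 were measured, by 19 probe sets, among 12393 genes with such a probe set. Dusp4, which encodes a nuclear phosphatase of ERK, had no such probe set in the annotation used and was not analysed here.

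The cultures were adult mouse neural stem cells. Every culture was Tlx(f/Z), where f commonly denotes an allele that Cre can delete. Tlx, also called Nr2e1, is an orphan nuclear receptor that keeps these cells dividing. One kind of culture was Tlx(f/Z;CreER), called CreER below, and also carried Cre fused to an estrogen receptor domain, which 4-hydroxytamoxifen activates. The other kind was Tlx(f/Z) and is called no-Cre below. Each kind received 4-hydroxytamoxifen (4OH-TM in the labels, 4OHT below) or vehicle and was collected at 36 h or 60 h. That gave 8 groups: CreER with 4OHT, CreER with vehicle, no-Cre with 4OHT and no-Cre with vehicle, each at 36 h and at 60 h, with 2 arrays per group and 16 arrays in all. Both arrays of a group are given as biological replicates, but whether from separate animals is not stated. The p-values therefore reflect only how far these samples spread, as pooled over genes of similar signal, and that spread may be technical. The labels do not say what drives CreER, and Nr2e1 was not analysed here, so the targeted gene did not check the labels.

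Epidermal and fibroblast growth factors keep adult neural stem cells dividing in culture. Their receptors are tyrosine kinases that recruit adaptors, activate RAS and, through RAF and MEK, the kinase ERK. ERK then switches on genes that damp it: Sprouty proteins (Spry) act between the receptor and RAF, dual-specificity phosphatases (Dusp) remove the activating phosphates from ERK, and ETS transcription factors such as ETV5 carry the signal to further genes.

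The promoters of Dusp6 and Etv5 are shown because these are the members whose brightest probe set was lower in CreER than in no-Cre cultures on every vehicle array. Each is the 250 bases before the listed start, 5′ to 3′ along the gene's strand, from RefSeq (GRCm38.p6), whose table held an entry for 7 of the 10 members. Capitals mark matches of CGGAA, which holds the GGAA core that ETS factors bind, and of CCAAT, a common promoter element, on either strand.
Dusp6, chr10:99262981-99263230, plus strand: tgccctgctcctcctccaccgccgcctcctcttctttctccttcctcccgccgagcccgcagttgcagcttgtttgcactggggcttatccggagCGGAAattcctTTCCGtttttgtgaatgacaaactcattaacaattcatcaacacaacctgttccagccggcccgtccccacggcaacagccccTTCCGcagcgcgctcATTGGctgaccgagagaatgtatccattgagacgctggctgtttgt
Etv5, chr16:22439571-22439820, minus strand: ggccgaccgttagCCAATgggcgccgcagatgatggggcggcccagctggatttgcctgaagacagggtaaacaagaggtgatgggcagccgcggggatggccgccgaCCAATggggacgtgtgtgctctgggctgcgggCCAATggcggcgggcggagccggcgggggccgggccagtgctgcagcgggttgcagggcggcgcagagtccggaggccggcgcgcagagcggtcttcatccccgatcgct
The Dusp6 window held 3 matches of CGGAA and 1 of CCAAT, and the Etv5 window held 0 and 3. The other listed start of Etv5 had 0 matches of CGGAA and 1 of CCAAT. Of 32851 promoter windows of this length, 25.2% held CGGAA and 33.8% held CCAAT. A match is a description of the letters only.

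Values are linear signals of the array. Differences are of log2(signal + 16), a scale on which changes of dim genes look smaller than they are. Signals of different probe sets are not comparable as amounts. The filter on dim genes was set at the 40th percentile of mean log2 values, a signal of 51.1, and 7619 genes and all 9 measured members passed it. A gene was called where limma's adjusted p over these genes was below 0.05. The median signal of an array lay between 92.2 and 132.6, a range of 1.44-fold. Replicate arrays correlated at r = 0.988 to 0.991 over genes, while arrays of different genotype had a median r of 0.973. The 5′ to 3′ signal ratio of the actin control, a measure of RNA and labelling quality, was 0.776 ± 0.0454 in CreER and 0.614 ± 0.0534 in no-Cre cultures at 36 h, whereas at 60 h it averaged 0.826 ± 0.0729 in CreER and 0.825 ± 0.0548 in no-Cre cultures (SD, n = 4 per mean). Of 9 measured markers of neural stem or progenitor cells, 8 passed the filter (Nes, Sox2, Fabp7 and Vim among them) and Prom1 did not. Of 7 measured markers of the oligodendrocyte lineage, 4 passed, with mean signals of 7265 for Olig1, 3489.9 for Olig2, 240.1 for Cspg4 and 52.7 for Sox10. Mbp, Mag and Mog lay below the filter. Of the astrocyte markers, Aldoc (mean signal 3678), S100b (431), Aldh1l1 (115) and Gja1 (98.4) passed, while Gfap and Aqp4 lay below the filter. The neuron markers that passed were Map2 (1560), Syt1 (116) and Syp (66.5). All 6 endothelial and all 5 fibroblast markers lay below the filter. The summed signal of 7 neuron markers, of which 3 passed, was 1029.7 to 1845 in CreER and 1610.2 to 2315 in no-Cre cultures, that of 6 astrocyte markers, of which 4 passed, 4132 to 5533 and 3659 to 4471, and that of 7 microglia markers, of which 1 passed, 78.6 to 163 and 109 to 225. Each of these ranges overlapped between genotypes.

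**Figure D1:**
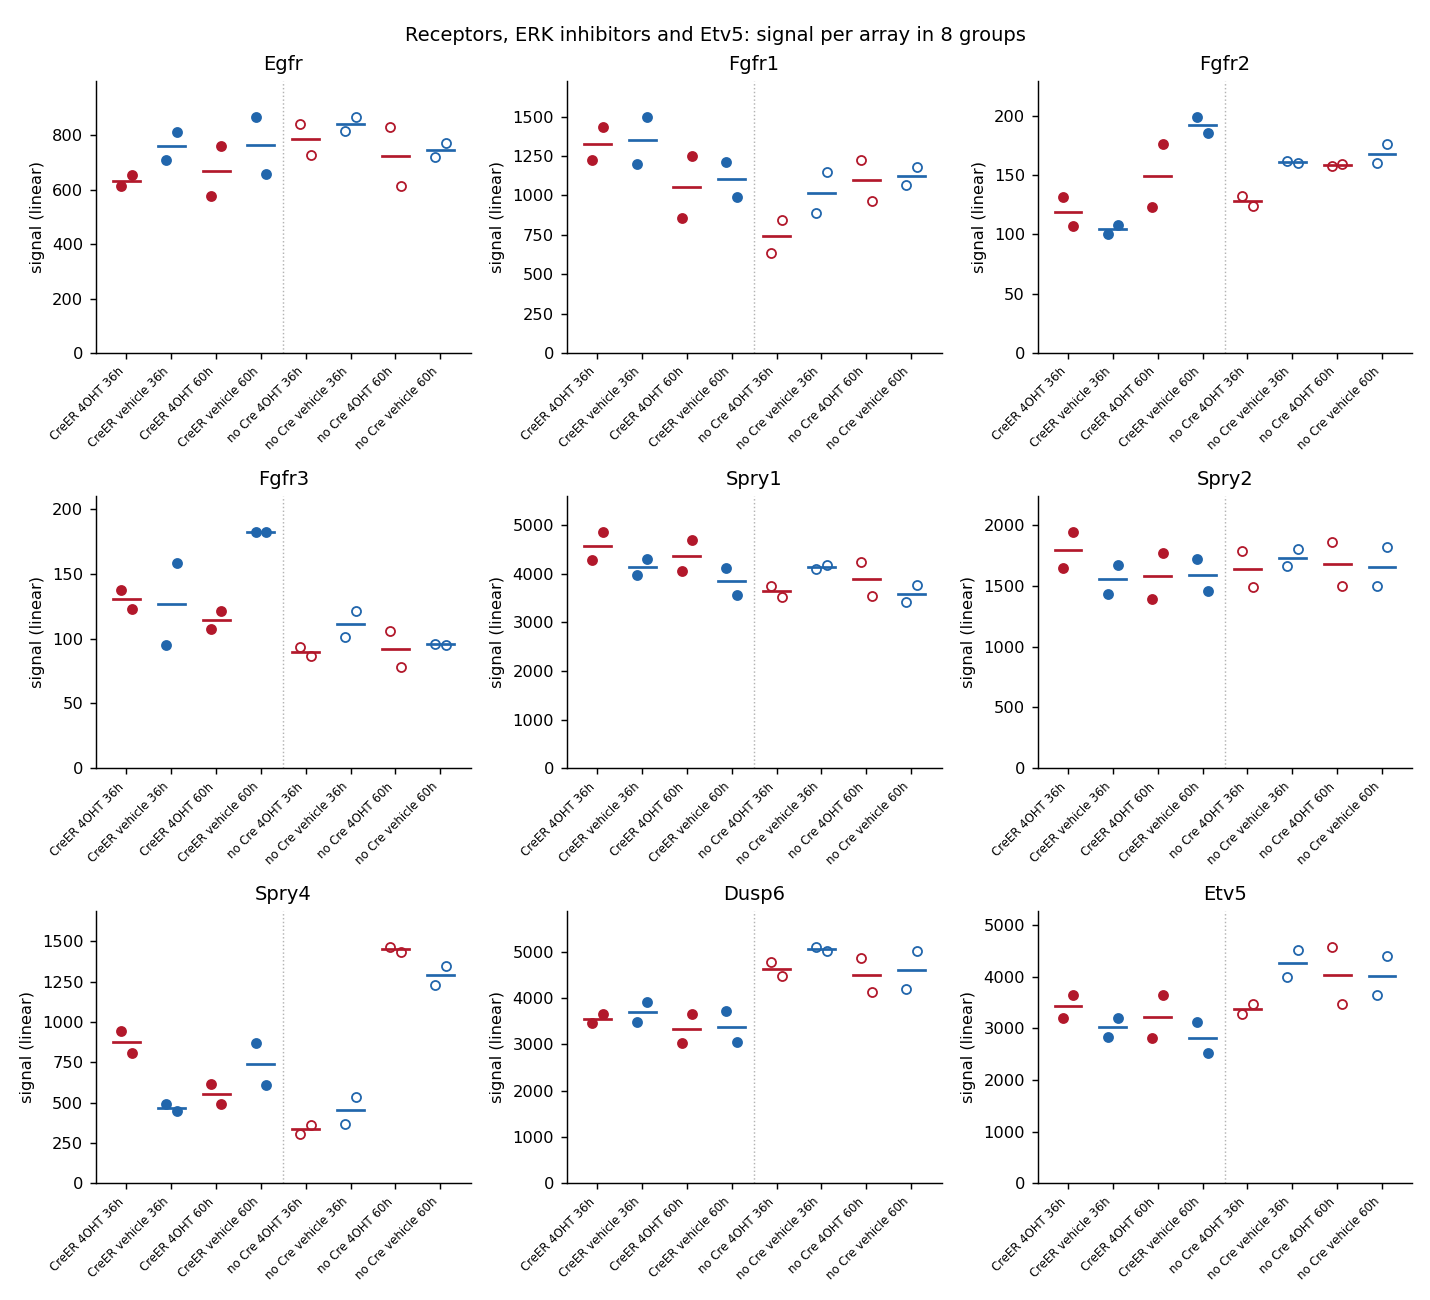
Signal of each of the 9 measured genes (vertical axes, linear array signal, from 0) in the 8 groups (horizontal axes). Points are single arrays, filled for CreER and open for no-Cre, red for 4OHT and blue for vehicle, and bars are group means of 2 arrays; the 8 Dusp6 points of CreER lie between 3021 and 3918, below the 8 no-Cre points.

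Spry4 changed with 4OHT, with time and with the combination of genotype, treatment and time. Dusp6 was lower in CreER than in no-Cre cultures on every array, and Etv5 on every vehicle array by its brighter probe set. Egfr, Spry1 and Spry2 passed no test on the deposited signals of their brightest probe sets. In bulk cultures fewer cells of a kind and less RNA per cell cannot be told apart, here and in all that follows.

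The response to 4OHT in CreER cultures, the condition in which Tlx would be deleted, was the first comparison. Over both times, limma called 0 of the 9 members, against 12.4% of all genes tested (305 higher and 637 lower, or 1495 and 1459 after quantile normalization), and 0 of the 9 had an unadjusted p under 0.05. Their log2 differences lay between -0.27 and 0.24, with a median of -0.04 beside -0.07 for all genes. At 36 h, 1 member was called, Spry4, which was higher, against 2.61% of all genes called and 1.12% called higher (85 higher and 114 lower, or 361 and 1103 after scaling every array to a common median). At 60 h, 0 of 9 were called, against 7.00% of all genes (180 higher and 353 lower, or 1039 and 753 after median scaling). Of the 9, Fgfr3 and Spry4 had an unadjusted p under 0.05.

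Spry4, an inhibitor of the RAS and ERK route induced by fibroblast growth factor, was read by probe set 1422021_at. At 36 h it had signals of 942 and 811 in CreER cultures with 4OHT, against 490.4 and 446 in CreER cultures with vehicle. Both treated arrays were higher, without overlap. The log2 difference was 0.88 (SE 0.19), a 1.84-fold rise, with limma adjusted p = 0.000939. At 60 h it had 613 and 492 with 4OHT, against 872 and 612 with vehicle. These ranges overlapped narrowly, and the difference of -0.40 (SE 0.19) was not called (limma adjusted p = 0.204), though it was without the second CreER vehicle array of 60 h (-0.65, adjusted p = 0.0343). The response at 60 h minus that at 36 h was -1.28 (SE 0.27, limma adjusted p = 0.00243), in a comparison that called 0.197% of all genes and 0.105% in that direction. The 36 h rise was lost when the first CreER array with 4OHT at 36 h was left out (0.77, adjusted p = 0.144), and when dim genes were not filtered out (adjusted p = 0.0681).

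In no-Cre cultures the order of treated and vehicle arrays was the other way round at each time. At 36 h Spry4 had 308 and 361 with 4OHT, against 369 and 538 with vehicle. At 60 h it had 1467 and 1436 with 4OHT, against 1229.9 and 1349.5 with vehicle. The treated arrays lay below the vehicle arrays at 36 h and above them at 60 h in no-Cre cultures. Over both times, 0 of 9 members were called for 4OHT without Cre, against 0.0656% of all genes, and 0 of the 9 had an unadjusted p under 0.05. Spry4 gave -0.12 (SE 0.13, limma adjusted p = 1). A comparison added after the values were seen set the change of the response between times in CreER against that in no-Cre cultures. It was -1.85 for Spry4 (SE 0.38, limma adjusted p = 0.00143), the 1 member called, against 0.604% of all genes and 0.564% called lower. The median of all genes in it was -0.25, and Spry4 relative to that median was -1.60.

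Spry4 changed most with time in cultures without Cre. Its signals at 60 h were 1371 ± 106 and those at 36 h 394 ± 99.7 in no-Cre cultures (SD, n = 4 each), without overlap. The log2 difference was 1.78 (SE 0.13), a 3.44-fold rise, with limma adjusted p = 8.05e-37. In CreER cultures Spry4 averaged 647 ± 160 at 60 h, against 673 ± 242 at 36 h (SD over 4 arrays), and the difference of -0.01 (SE 0.13) was not called (limma adjusted p = 0.977). That average held opposite changes. From 36 h to 60 h the CreER group mean rose with vehicle (log2 0.63) and fell with 4OHT (-0.65), each without overlap. These changes within a treatment were not tested. The difference of the changes, CreER minus no-Cre, was -1.80 (SE 0.19, limma adjusted p = 1.22e-17) and stayed between -1.93 and -1.67 when any 1 array was left out. With dim probe sets kept, limma adjusted p was 3.76e-06 for the no-Cre rise and 0.000486 for the difference of the changes. These comparisons of time within a genotype were also added after the values were seen. By group mean, Spry4 ran in rising order no-Cre 4OHT 36 h, no-Cre vehicle 36 h, CreER vehicle 36 h, CreER 4OHT 60 h, CreER vehicle 60 h, CreER 4OHT 36 h, no-Cre vehicle 60 h and no-Cre 4OHT 60 h. Of neighbours in that order, no-Cre vehicle 36 h overlapped CreER vehicle 36 h, and CreER vehicle 60 h overlapped both CreER 4OHT groups, while the others were apart.

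**Figure D2:**
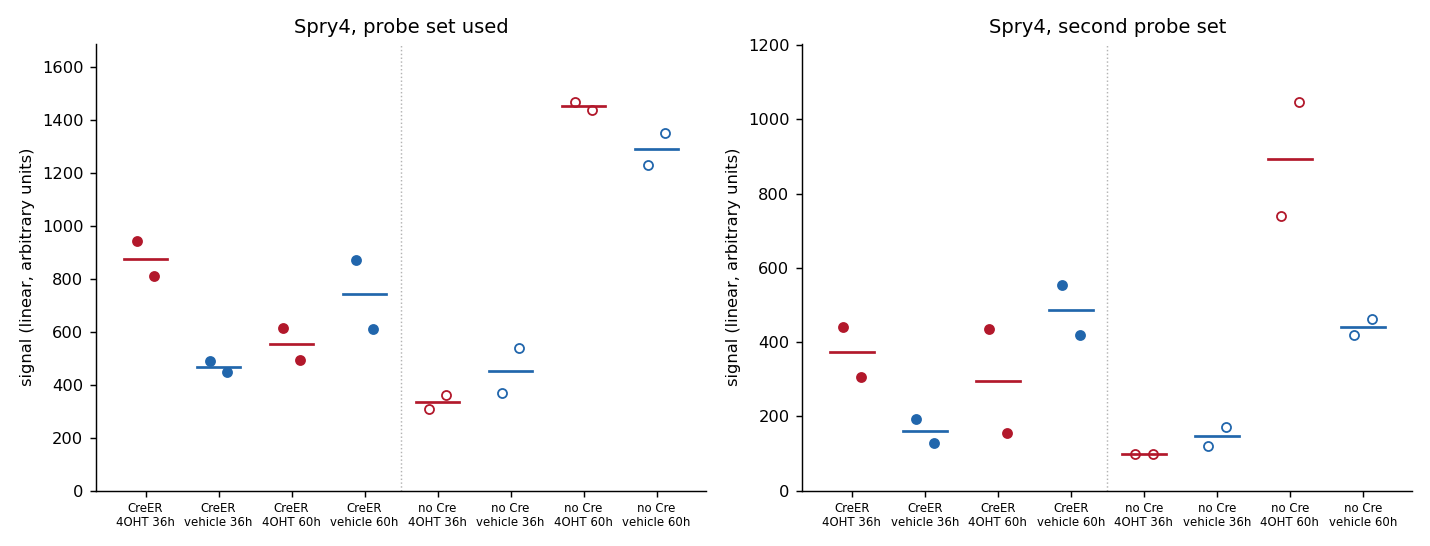
Signal of Spry4 by its brighter probe set (left) and its dimmer probe set (right) in the 8 groups. Points are single arrays and bars are means of 2 arrays, filled for CreER and open for no-Cre, red for 4OHT and blue for vehicle; in both panels the no-Cre arrays at 60 h lie above those at 36 h, and 4OHT lies above vehicle in CreER cultures at 36 h.

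The second probe set of Spry4, 1422020_at, gave the same order at 36 h in CreER cultures, with 440.2 and 307 with 4OHT, against 193 and 129 with vehicle (log2 1.14, limma adjusted p = 7.74e-06). At 60 h it had 435 and 155 with 4OHT, against 554 and 419.9 with vehicle. That difference of -0.84 was called (limma adjusted p = 0.00139), although the arrays overlapped. In no-Cre cultures it rose with time by 2.24, and in CreER cultures by 0.53 (limma adjusted p = 0.00715), where the brighter probe set showed no call. In a fit that also kept dim probe sets, none of these CreER differences was called. Limma adjusted p was then 0.219 at 36 h, 0.253 at 60 h and 0.41 with time. The 2 probe sets read transcripts of 1 gene on the same arrays and are not replicates.

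The actin ratio moved with Spry4. In no-Cre cultures it lay between 0.548 and 0.666 at 36 h and between 0.773 and 0.891 at 60 h, so that low ratios and low Spry4 signals fell on the same arrays. In 6 of 8 groups the array with the higher ratio also had the higher Spry4 signal. Over the 8 CreER arrays, Spry4 relative to the array median had Pearson's r = 0.74 with the ratio (exact permutation p = 0.0428, adjusted 0.128 over 18 relations of 9 genes and 2 genotypes) and Spearman's rho = 0.62 (exact permutation p = 0.115, adjusted 0.207). Without the 2 arrays farthest from the median ratio r was 0.26, so the relation rested on them. The no-Cre arrays fell into separate clusters by time, so that ratio and time cannot be told apart there, and no p-value is given. As a description, r over the 8 no-Cre arrays was 0.96 for Spry4, and also 0.96 without the 2 farthest arrays. It was -0.88 for Egfr, -0.88 for Dusp6 and 0.79 for Fgfr1, and lay between -0.56 and 0.50 for the remaining members. With the ratio as a covariate in limma, the 36 h rise in CreER cultures was 0.68 (adjusted p = 0.0147) and the difference of the time changes -1.27 (adjusted p = 0.000718), both still called. The change of the CreER response between times became -0.78 (adjusted p = 0.259), the no-Cre rise with time 1.09 (adjusted p = 0.0588), and the change of the response between times and genotypes -0.95 (adjusted p = 0.149), none of them called.

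**Figure D3:**
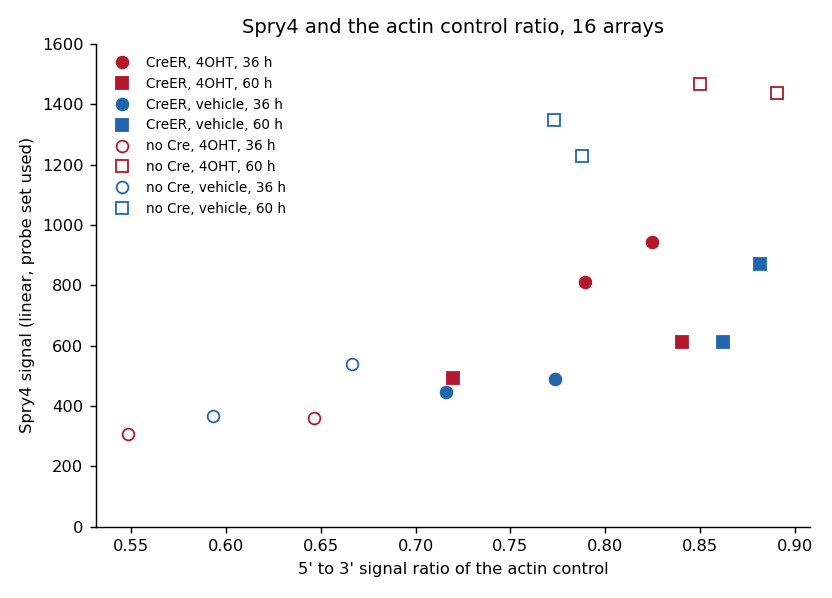
Spry4 signal (vertical axis, linear, brighter probe set) against the 5′ to 3′ signal ratio of the actin control (horizontal axis) on 16 arrays. Each point is 1 array, circles for 36 h and squares for 60 h, filled for CreER and open for no-Cre, red for 4OHT and blue for vehicle; the 4 no-Cre arrays of 36 h have ratios of at most 0.666 and signals of at most 538.

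No other member was called for 4OHT in CreER cultures as deposited. Etv5 had 3209 and 3639.9 in CreER cultures with 4OHT at 36 h, against 2833 and 3201 with vehicle, a difference of 0.18 (SE 0.15, limma adjusted p = 0.719). At 60 h it had 2803 and 3643 with 4OHT, against 3128 and 2514 with vehicle. The groups were apart at 36 h and overlapped at 60 h. The response in CreER minus that in no-Cre cultures was 0.36 for Etv5 (SE 0.15, limma adjusted p = 0.304), in a comparison that called 0 of 9 members, against 2.34% of all genes, with 1 of the 9 (Etv5) at an unadjusted p under 0.05. That difference was called after median scaling (0.32, adjusted p = 0.00547), after quantile normalization (0.34, adjusted p = 0.00667) and by the second probe set of Etv5 (0.65, adjusted p = 0.0156). The second probe set was not called in a fit that also kept dim probe sets (limma adjusted p = 0.337).

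Fgfr3, a receptor for fibroblast growth factors that is enriched in radial glia and astrocytes, had 108 and 122 in CreER cultures with 4OHT at 60 h, against 183 and 182 with vehicle. Both treated arrays were lower, but the difference of -0.61 (SE 0.22) missed the threshold (limma adjusted p = 0.0651). At 36 h Fgfr3 had 137 and 123 with 4OHT, against 95.3 and 158 with vehicle, which overlapped. The 60 h difference passed after median scaling (-0.49, adjusted p = 0.0314) and quantile normalization (-0.53, adjusted p = 0.0195).

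Egfr, the receptor for epidermal growth factor, had 576 to 761 in CreER cultures with 4OHT, against 658 to 867 with vehicle, over both times (-0.22, SE 0.13, limma adjusted p = 0.3). Spry1, a Sprouty of the same family as Spry4, had 4063 to 4869.7 with 4OHT, against 3565 to 4309.8 with vehicle (0.16, SE 0.11, limma adjusted p = 0.348). Both ranges overlapped. After median scaling Spry1 passed at 0.21 (adjusted p = 0.00263), Etv5 at 0.24 (adjusted p = 0.00169) and Egfr at -0.17 (adjusted p = 0.0435). Spry2, Dusp6, Fgfr1 and Fgfr2 differed by -0.09 to 0.10 over both times and were not called; the 95% interval for Dusp6 ran from -0.24 to 0.17.

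**Figure D4:**
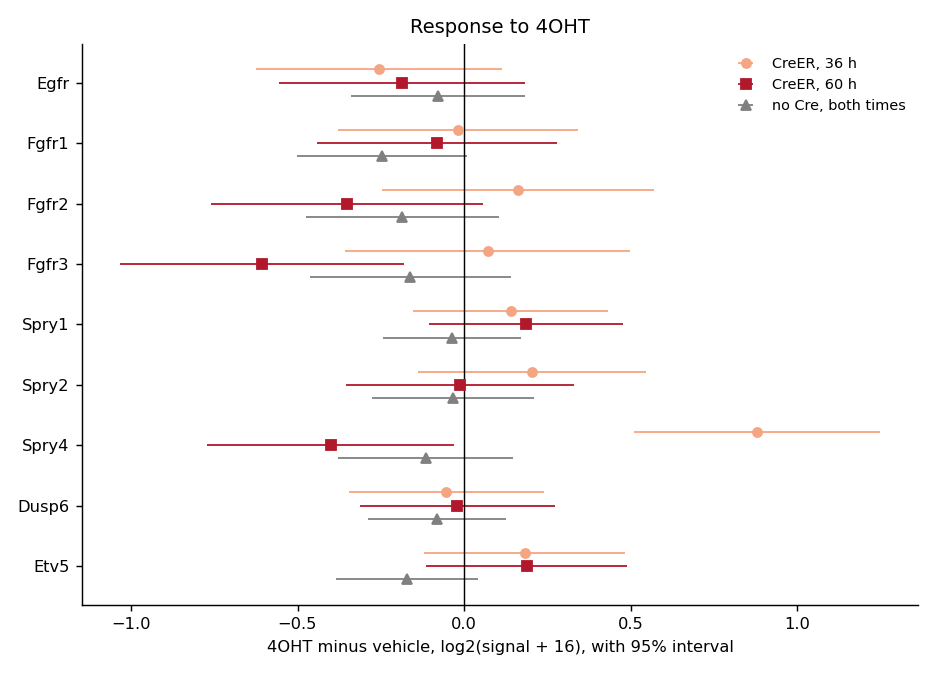
Difference of 4OHT minus vehicle for the 9 measured genes (rows) on the log2(signal + 16) scale (horizontal axis), with 95% intervals from limma, in CreER cultures at 36 h (circles) and 60 h (squares) and in no-Cre cultures over both times (triangles). Spry4 at 36 h stands at 0.88, and Fgfr3 at 60 h at -0.61.

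Genotype was compared under vehicle, where no 4OHT was given to activate CreER. Whether CreER was active without 4OHT was not tested. Of the 9 members, 1 was higher in CreER cultures (Fgfr3) and 3 were lower (Spry4, Dusp6 and Etv5), against 7.97% of all genes called higher and 26.6% called lower. In all 34.5% of genes were called, so 4 of 9 members is read beside that share. The counts of all genes were 607 higher and 2024 lower as deposited, 2187 and 1781 after median scaling, and 2223 and 1987 after quantile normalization. The median difference of all genes was -0.13 as deposited and 0.04 after median scaling, and values relative to the deposited median are given beside each gene.

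Dusp6, the cytoplasmic phosphatase of ERK, had 3478 and 3918 at 36 h and 3732 and 3044 at 60 h in CreER cultures with vehicle, against 5111 and 5012 at 36 h and 4199 and 5017 at 60 h in no-Cre cultures with vehicle. Under 4OHT it had 3465 and 3653 at 36 h and 3021 and 3654 at 60 h in CreER cultures, against 4775 and 4475 at 36 h and 4874 and 4132 at 60 h in no-Cre cultures. All 8 CreER arrays lay below all 8 no-Cre arrays, as 10.6% of all genes tested separated in either direction. Under vehicle the difference was -0.45 (SE 0.11, limma adjusted p = 0.000157), and -0.32 relative to the median of all genes. It was -0.27 after median scaling (adjusted p = 6.7e-05) and -0.37 after quantile normalization (adjusted p = 1.89e-08). With the actin ratio as a covariate it was -0.27 and not called (adjusted p = 0.17). Over the 8 CreER arrays, Dusp6 relative to the array median was lower where the actin ratio was higher, with Spearman's rho = -0.86 (exact permutation p = 0.0107, adjusted 0.0482 over the 18 relations) and Pearson's r = -0.76 (exact permutation p = 0.0297, adjusted 0.107), or -0.94 without the 2 arrays farthest from the median ratio. Dusp6 had 1 probe set, 1415834_at, and thus no check by another.

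Etv5 had 2833 and 3201 at 36 h and 3128 and 2514 at 60 h in CreER cultures with vehicle, against 3993 and 4525 at 36 h and 3643 and 4399 at 60 h in no-Cre cultures with vehicle. All CreER arrays under vehicle were lower. The difference was -0.50 (SE 0.11, limma adjusted p = 3.44e-05), -0.37 relative to the median of all genes, and -0.46 by the second probe set 1420998_at (adjusted p = 0.000971). With the actin covariate it was -0.35 (adjusted p = 0.0624). Under 4OHT the genotypes overlapped by the brighter probe set, with 2803 to 3643 in CreER and 3270.1 to 4578 in no-Cre cultures. By the second probe set the vehicle arrays overlapped at 36 h, with 1443 to 1567 in CreER and 1376 to 2379 in no-Cre cultures. Under 4OHT its CreER arrays were higher at 36 h (2029 to 2165, against 881 to 1325 in no-Cre cultures). They were lower at 60 h (1646 to 1828, against 2461 to 2718).

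Fgfr3 had 95.3 and 158 at 36 h and 183 and 182 at 60 h in CreER cultures with vehicle, against 101 and 121 at 36 h and 95.7 and 95.5 at 60 h in no-Cre cultures with vehicle. The CreER arrays were higher at 60 h and straddled the no-Cre arrays at 36 h. The difference was 0.48 (SE 0.15, limma adjusted p = 0.00725), and 0.61 relative to the median of all genes. It was lost without the second CreER vehicle array of 36 h (0.32, adjusted p = 0.139) or the first no-Cre vehicle array of 36 h (0.43, adjusted p = 0.0535). The second probe set of Fgfr3, 1425796_a_at, was below the filter, with 51.9 to 129.5 in CreER and 2.42 to 67.2 in no-Cre cultures over all arrays.

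Spry4 under vehicle was lower in CreER than in no-Cre cultures as deposited (-0.37, SE 0.13, limma adjusted p = 0.0203), or -0.24 relative to the median of all genes. The call was lost after median scaling (-0.20, adjusted p = 0.162) and quantile normalization (-0.21, adjusted p = 0.197), and the second probe set gave 0.12 (adjusted p = 0.536). The 60 h arrays carried it: 872 and 612 in CreER cultures, against 1229.9 and 1349.5 in no-Cre cultures. At 36 h the ranges overlapped.

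Spry2, a Sprouty that acts on fibroblast and epidermal growth factor signals, depended on the probe set. By 1436584_at it had 1437 to 1720.1 in CreER and 1498 to 1819.8 in no-Cre cultures with vehicle, a difference of -0.11 (SE 0.12, limma adjusted p = 0.532). By the dimmer 1421656_at it had 113 to 171 in CreER and 19.5 to 67.5 in no-Cre cultures over all arrays, without overlap. It passed the filter through the CreER arrays. All 4 no-Cre vehicle arrays, at 23.8 to 40.8, lay below the filter's signal of 51.1, and no fold or test is given. The brighter probe set overlapped between genotypes and the dimmer one separated them fully.

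The remaining members were not called between genotypes as deposited. Fgfr1 had 1226 ± 210 in CreER and 1069.8 ± 132 in no-Cre cultures with vehicle, and Spry1 had 3997 ± 317 in CreER and 3866 ± 351 in no-Cre cultures (SD, n = 4 each). Both overlapped, with differences of 0.19 for Fgfr1 (limma adjusted p = 0.271) and 0.05 for Spry1 (limma adjusted p = 0.759). After median scaling both were called higher in CreER cultures, Fgfr1 by 0.36 (adjusted p = 0.00139) and Spry1 by 0.22 (adjusted p = 0.000901), and likewise after quantile normalization (0.34 and 0.13). The second probe set of Fgfr1 gave 0.14 (adjusted p = 0.47). Egfr averaged 761 ± 95.1 in CreER and 793 ± 63.8 in no-Cre cultures, and Fgfr2 148 ± 51.2 in CreER and 164 ± 7.93 in no-Cre cultures (SD, n = 4 each). Neither was called under any of the 3 scalings.

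**Figure D5:**
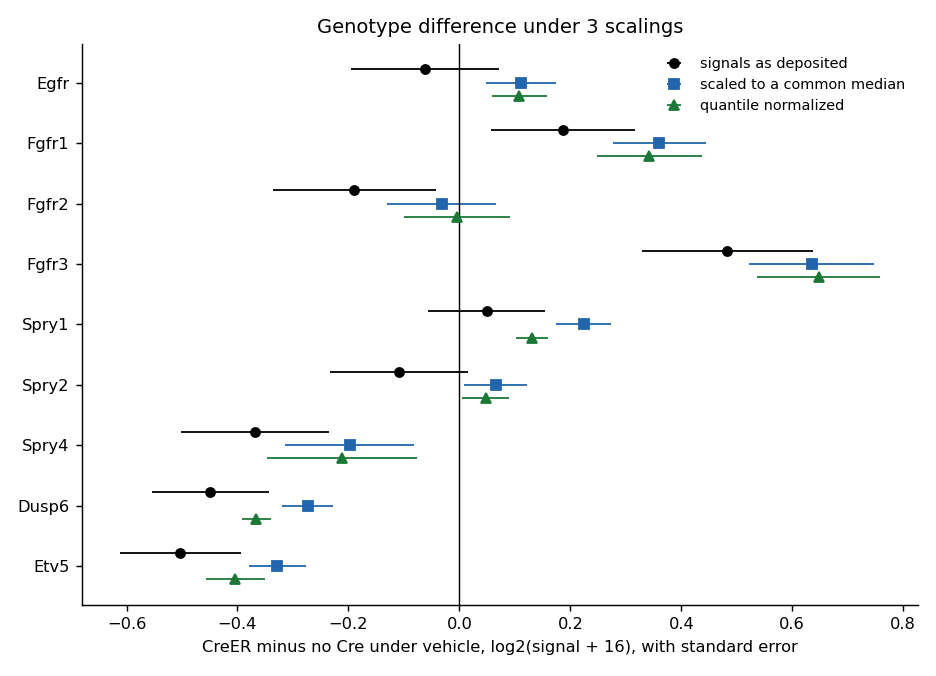
Difference of CreER minus no-Cre cultures under vehicle for the 9 measured genes (rows) on the log2(signal + 16) scale (horizontal axis), with standard errors, from the signals as deposited (circles), scaled to a common median (squares) and quantile normalized (triangles). Dusp6 and Etv5 lie below 0 and Fgfr3 above 0 in all of them, while Egfr and Spry2 change sign.

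Time was compared over all 4 conditions. Of 9 members, 2 were higher at 60 h than at 36 h, Spry4 and Fgfr2, against 11.8% of all genes called and 3.61% called higher. Spry4 rose by 0.88 (SE 0.09, limma adjusted p = 1.82e-17). As given above, it rose in no-Cre cultures with either treatment and in CreER cultures with vehicle, and fell in CreER cultures with 4OHT. With the actin covariate the rise over all conditions was 0.46 (adjusted p = 0.319).

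Fgfr2, a receptor for fibroblast growth factors, had 123 and 176 with 4OHT and 199 and 185 with vehicle at 60 h, against 132 and 107 with 4OHT and 101 and 108 with vehicle at 36 h, in CreER cultures. The vehicle arrays separated and the 4OHT arrays overlapped. In CreER cultures the change with time was 0.54 (SE 0.15, limma adjusted p = 0.00888), the 1 member called, against 5.28% of all genes and 1.69% called higher. In no-Cre cultures it was 0.17 (SE 0.15, limma adjusted p = 0.491), and the difference between the genotypes, 0.37, was not called (adjusted p = 0.572). Over all conditions it was 0.35 (SE 0.10, limma adjusted p = 0.0113). The second probe set of Fgfr2 gave 0.12 over all conditions (adjusted p = 0.539), and the call was lost with dim genes kept (adjusted p = 0.0552), with the actin covariate (0.57, adjusted p = 0.272) and without the second CreER 4OHT array of 36 h (0.32, adjusted p = 0.0654).

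In no-Cre cultures 1 of 9 members, Spry4, was called for time, against 4.10% of all genes and 2.52% called higher. Between genotypes the change with time differed for 2 of 9 members, Spry4 and Fgfr1, both lower in CreER, against 2.14% of all genes and 1.27% called lower. Fgfr1, the receptor through which fibroblast growth factor 2 acts on neural stem cells, had 855 to 1250.0 at 60 h and 1200.5 to 1501 at 36 h in CreER cultures, and 967 to 1223 at 60 h and 637 to 1146 at 36 h in no-Cre cultures. The mean was lower at 60 h in CreER and higher at 60 h in no-Cre cultures, with overlap in both and neither called (-0.32, adjusted p = 0.159, and 0.36, adjusted p = 0.0958). The difference of the changes was -0.68 (SE 0.18, limma adjusted p = 0.0184). The second probe set 1424050_s_at gave 0.00 (adjusted p = 0.999), and the call was lost in 7 of 16 fits that each left out 1 array. It was also lost with the actin covariate, and in a fit that kept dim probe sets (limma adjusted p = 0.178).

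Scaling moved the split of all genes in these comparisons. For time over all conditions 275 were higher and 622 lower as deposited, 555 and 2920 after median scaling, and 1199 and 1399 after quantile normalization. For no-Cre cultures the counts were 192 and 120 as deposited, 501 and 3016, and 937 and 1129 in the same order of scalings. For CreER cultures they were 129 and 273, 421 and 1225, and 855 and 879. For the difference of the time changes they were 66 and 97, 793 and 386, and 657 and 650. For the CreER response between times they were 7 and 8, 145 and 15, and 113 and 56, and for its difference between genotypes 3 and 43, 129 and 42, and 142 and 132. The called differences of Spry4 in these comparisons kept their direction under both scalings.

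The second probe sets of Etv5 and Egfr rose with time in no-Cre cultures, and their brighter ones were not called. Etv5 by 1420998_at had 2461 to 2979.7 at 60 h, against 881 to 2379 at 36 h (0.94, limma adjusted p = 1.83e-12), while its brighter probe set differed by 0.08 (adjusted p = 0.675). Egfr by 1460420_a_at had 560.0 to 632 at 60 h, against 349.7 to 520.0 at 36 h (0.47, limma adjusted p = 0.0132), while its brighter probe set differed by -0.15 (adjusted p = 0.494). In CreER cultures the same probe sets differed by -0.02 for Etv5 and 0.14 for Egfr. The actin ratio rose with time in no-Cre cultures, as given above, and its part in these differences was not tested.

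The rest of the route was read from a list of 102 genes in 5 roles, of which 86 had a probe set and 60 were tested. In CreER cultures 4OHT raised 5 and lowered 0 of the 60 over both times, against 305 higher and 637 lower of 7619 genes (12.4% called), with a median of -0.02 beside -0.07 for all genes. The counts were 16 and 1 after median scaling, where 33.0% of all genes were called. They were 18 and 1 after quantile normalization, where 38.8% were. Of 6 ligands tested, Pdgfa (0.51) and Pdgfc (0.41), both ligands of platelet-derived growth factor receptors, rose. Of 18 adaptors and kinases, Rras, a small GTPase related to RAS, rose (0.44). Of 15 inhibitors, Dusp1, a phosphatase of stress and ERK kinases, rose by 0.91 (1013 ± 258 with 4OHT and 522 ± 82.4 with vehicle, SD, n = 4 each, limma adjusted p = 1.97e-09), without overlap. Of 14 target genes, the immediate early gene Fos rose (0.49), and of 7 other receptors 0 were called.

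At 36 h, where 2.61% of all genes were called, Dusp1 rose (0.73) and Rasa1, which encodes a GTPase activator that turns RAS off, fell by 0.68. At 60 h, where 7.00% of all genes were called, Pdgfa (0.70), Pdgfc (0.70), Dusp1 (1.10) and Fos (0.77) rose. Without Cre, over both times, limma called 0 of 60 as deposited, against 0.0656% of all genes, and 3 of the 60 had an unadjusted p under 0.05. The counts were 1 higher and 0 lower after median scaling, where 0.263% of all genes were called. They were 1 and 2 after quantile normalization, where 0.814% were. The response in CreER minus that in no-Cre cultures was called for 1 of 60, Dusp1 (0.64, limma adjusted p = 0.0345), against 2.34% of all genes. After median scaling 9 of the 60 were called in that comparison, where 15.7% of all genes were called (425 higher and 771 lower). After quantile normalization 14 of the 60 were, where 19.3% of all genes were called (693 higher and 776 lower). All 9 and all 14 were higher in CreER cultures.

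Under vehicle CreER cultures had 7 of the 60 genes higher and 20 lower than no-Cre cultures, against 7.97% of all genes higher and 26.6% lower. The counts were 18 and 19 after median scaling, where 52.1% of all genes were called, and 18 and 20 after quantile normalization, where 55.3% were. Of 6 ligands, Hbegf, a ligand of the epidermal growth factor receptor, was higher (0.79), as was Tgfa (0.40), while Pdgfc (-1.53) and Pdgfa (-0.90) were lower. Of 7 other receptors, Ntrk2 (1.34), Axl (1.06) and Kit (0.53) were higher and Igf1r (-0.52) was lower. Of 18 adaptors and kinases 0 were higher and 6 lower, with Gab1 (-0.98), Rps6ka3 (-0.61), Shc1 (-0.52) and Nras (-0.48) among them, or 2 and 6 after median scaling. Of 15 inhibitors 0 were higher and 4 lower as deposited, namely Rasa1 (-0.99), Spred1 (-0.65), Dusp7 (-0.59) and Rasa3 (-0.57). That split depended on the scaling, with 6 higher and 4 lower after median scaling and 5 and 4 after quantile normalization. Of 14 target genes 2 were higher, Ier3 (0.69) and Fosl2 (0.51, named after its value was seen), and 7 were lower, among them Phlda1 (-0.54), Srf (-0.49) and Ccnd1 (-0.35).

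With time, 6 of the 60 rose and 0 fell over all conditions as deposited, against 11.8% of all genes called and 3.61% called higher. The counts were 12 and 16 after median scaling, where 45.6% of all genes were called, and 18 and 6 after quantile normalization, where 34.1% were. The 6 were the adaptors Shc3 (0.68) and Gab2 (0.52), the inhibitor genes Dusp1 (0.34) and Cbl (0.30) and the target genes Fosl2 (0.41) and Ier3 (0.28). In CreER cultures 1 rose as deposited, the target gene Phlda1 (0.43), against 1.69% of all genes called higher. The CreER counts were 6 higher and 4 lower after median scaling, where 21.6% of all genes were called. They were 9 and 1 after quantile normalization, where 22.8% were. In no-Cre cultures 3 rose and 0 fell as deposited, against 2.52% of all genes called higher. Shc3 rose by 1.05, Gab2 by 0.82 and Etv4, an ETS gene related to Etv5, by 0.45. The no-Cre counts were 10 higher and 18 lower after median scaling, where 46.2% of all genes were called. They were 13 and 7 after quantile normalization, where 27.1% were. At 60 h the no-Cre actin ratio averaged 0.825 ± 0.0548, against 0.614 ± 0.0534 at 36 h (SD over 4 arrays), and its part in these changes was not tested. The change with time differed between genotypes for 2 of 60, Shc3 (-0.74, limma adjusted p = 0.0218) and the target gene Ier2 (-0.64, limma adjusted p = 0.0434), both lower in CreER cultures, against 2.14% of all genes. After median scaling the counts were 7 higher and 5 lower, where 15.5% of all genes were called. After quantile normalization they were 5 and 5, where 17.2% were.

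The genes whose pattern was most like each member were taken by the lower of its 2 Pearson correlations, over the 8 CreER and over the 8 no-Cre arrays, after removing each array's median. The arrays share their brightness and RNA quality, and the values are descriptions. Spry4 was most like Ap2a1 (r = 0.94 in CreER and 0.95 in no-Cre cultures) and Kcnd3 (0.93 and 0.99). Kcnd3, which encodes a potassium channel, averaged 146 with 4OHT and 73.2 with vehicle at 36 h in CreER cultures, and 27.0 with 4OHT and 45.9 with vehicle at 36 h and 207 with 4OHT and 191 with vehicle at 60 h in no-Cre cultures. Dusp6 was most like Parl (0.93 and 0.96) and Thyn1 (0.93 and 0.91), and Etv5 like Atp6v0e2 (0.79 and 0.80) and Camk2b (0.94 and 0.77). Spry1 was most like Rpl6 (0.97 and 0.95) and Cox6b1 (0.93 and 0.96), Spry2 like Pttg1ip (0.87 and 0.87) and Zfand3 (0.85 and 0.93), and Egfr like Nrde2 (0.96 and 0.93) and Dido1 (0.93 and 0.92). Fgfr1 was most like Erf (0.87 and 0.93) and Cluh (0.87 and 0.89), Fgfr2 like Cdh22 (0.90 and 0.94) and Cplx2 (0.87 and 0.89), and Fgfr3 like Rorb (0.84 and 0.84) and Pcid2 (0.88 and 0.79).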

How the data were processed

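RNA of 16 cultures was measured on 1 Affymetrix array each. TRIzol RNA was labelled with biotin during in vitro transcription, per the labels. The deposited intensity values are linear signals, 1 for each probe set on each array, made with MAS5 per the submitters' processing notes. Its version and scaling target are not given in the sources used here. Each array held 1 sample, and precision is limited by there being 2 arrays a group.

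The table held 22690 probe sets, 64 of them controls, which were not used. The platform annotation gave 1 symbol to 20380 of the remaining 22626, several to 691 and none to 1555. Each gene was read from its brightest probe set by mean log2(signal + 16). A single limma 3.58.1 fit (R 4.3.3) of 8 group means over all 16 arrays, with 8 residual degrees of freedom, a mean-variance trend and Benjamini-Hochberg adjustment over 7619 genes, gave two-sided tests. The prior degrees of freedom were infinite, so each gene's variance followed the shared trend. Exact permutation tests used scipy 1.17.1.

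All 10 members are described; genes of the route are named where called, at most 4 per role and comparison by smallest p, and the 2 most alike genes per member by the rule given in the text. The members and lists were chosen with earlier results of these data known. Comparisons of time within and between genotypes, and of the response between times and genotypes, were added after values were seen, as were the relations with the actin ratio. Alternatives were median scaling, quantile normalization, pseudocounts of 1 and 64, no filter, no trend, the actin ratio as a covariate, a replicate block, only the groups compared, the second probe set and leaving out each array. The fit was tested on simulated data with known changes. It called 76.1% of 1.5-fold changes for the CreER response over both times and 44.8% at 36 h. The 36 h share was lower in another random draw, and real changes of this size or smaller can go uncalled.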

Additional observations from a re-analysis of the deposited data

Results flagged for a closer look

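The difference between times in the CreER response of Spry4 to 4OHT was -1.28 on the log2 scale by an interaction test in limma. The change of Spry4 with time differed between CreER and no-Cre cultures by -1.80, and that of Fgfr1 by -0.68. The change of the Spry4 response between times differed between the genotypes by -1.85. Each was called as a difference in itself, at adjusted p = 0.00243, 1.22e-17, 0.0184 and 0.00143 in the order given. The Fgfr1 value was 0.00 by its second probe set.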

How the results depend on the processing

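Each group had 2 arrays, and the variance of each gene was taken from genes of similar signal. Over 25 results, 186 of 239 alternative values, apart from those that left out an array, kept their direction and side of the threshold (or, for counts, stayed within 1.5 times), 32 counts moved, 19 gene calls were lost and 2 values turned sign: Spry4 between genotypes under vehicle (0.12) and Fgfr1 for time by genotype (0.0046), both by the second probe set. The cause was not tested. Median scaling gave counts of members called of 3 for CreER 4OHT over both times, 2 at 36 h, 3 at 60 h, 1 for CreER minus no-Cre, 4 for time over all conditions, 2 for time in CreER and 4 for time in no-Cre cultures. Quantile normalization gave 4, 3, 3 and 2 for the first 4 of these and 4 for time in no-Cre cultures. Of all genes, median scaling called 33.0%, 19.2%, 23.5%, 15.7%, 45.6%, 21.6% and 46.2% in the order of its member counts. Quantile normalization called 38.8%, 21.4%, 29.8%, 19.3% and 27.1% of all genes in the order of its own. With no filter the counts were 0 for 36 h, 0 for the CreER response between times, 1 for time over all conditions, 0 for time in CreER cultures, 1 for time by genotype and 0 for the response by time and genotype. With the actin covariate they were 1 for 60 h, 0 for the CreER response between times, 2 for genotype, 0 for time over all conditions, 0 for time in no-Cre cultures, 1 for time by genotype and 0 for the response by time and genotype. At 60 h a pseudocount of 64, no trend and the second probe set each gave 1, and the second probe set gave 1 for CreER minus no-Cre, 2 for genotype and 3 for time in no-Cre cultures, where fitting only the groups compared gave 2. Apart from the scalings, shares of all genes called are not given for these fits or for those that left out an array. A change of a member count there cannot be told apart from a change in the calls of all genes.

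Leaving out 1 array at a time gave counts of 0 to 0 for CreER 4OHT over both times, 0 to 1 at 36 h, 0 to 1 at 60 h, 0 to 0 in no-Cre cultures, 0 to 0 for CreER minus no-Cre, 0 to 1 for the CreER response between times, 2 to 4 for genotype, 1 to 2 for time over all conditions, 0 to 2 in CreER, 1 to 1 in no-Cre, 1 to 2 for time by genotype and 0 to 1 for the response by time and genotype. The Spry4 response between times ranged from -1.53 to -1.03 and lost its call without the first CreER vehicle array of 60 h, the first CreER 4OHT array of 36 h or the second CreER 4OHT array of 60 h (adjusted p = 0.0684, 0.137 and 0.0652). Its change by time and genotype of the response, -2.11 to -1.59, lost it without the first CreER 4OHT array (adjusted p = 0.0534) or the second no-Cre vehicle array (0.107) of 36 h. The Spry4 difference between genotypes lost it without the second array of CreER vehicle 36 h, CreER vehicle 60 h, no-Cre vehicle 36 h or no-Cre vehicle 60 h (adjusted p = 0.0665, 0.191, 0.28 and 0.0941). The Fgfr1 difference of time changes lost it (adjusted p = 0.0672 to 0.197) without the second array of CreER vehicle 36 h, CreER 4OHT 36 h or no-Cre vehicle 60 h, or the first of CreER 4OHT 60 h, no-Cre vehicle 36 h, no-Cre 4OHT 36 h or no-Cre 4OHT 60 h. The Fgfr1 change with time in CreER cultures was called without the first CreER vehicle array (-0.39, adjusted p = 0.0477) or the second CreER 4OHT array (-0.46, adjusted p = 0.0203) of 60 h. The Fgfr2 change with time in CreER cultures lost its call without the second CreER 4OHT array of 36 h (0.47, adjusted p = 0.137) or of 60 h (0.42, adjusted p = 0.0905). A replicate block changed no call: the Spry4 rise at 36 h stayed at 0.88 (adjusted p = 0.00292). Deviations of same-numbered arrays correlated at r = -0.12 to 0.31 over 28 pairs of groups, 6 of them over 0.1. The labels do not say what same-numbered arrays share, and these correlations cannot settle it. The main fit did not pair them.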
